A study of Mus musculus with 6 samples.

Results

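The replication checkpoint and homologous repair genes are the 33 genes, of 41388 in the deposited table, that encode the listed proteins of ATR checkpoint signaling, homologous recombination, the Fanconi pathway and mismatch repair. They were found by symbol, with Ensembl identifiers paired with GENCODE M21 names, and all 33 were present. Their RNA was measured in 6 RNA-seq libraries of primary hepatocytes from C57BL/6J mice. The cells of the control group received an adenovirus that encodes β-galactosidase (β-gal, replicates 1, 2 and 3), and those of the other group received an adenovirus that encodes Aloxe3, an epidermal-type lipoxygenase (Aloxe3, replicates 7, 8 and 9), for 24 h at about 1000000 particles per 1000000 cells. Both groups thus carried an adenovirus, and no uninfected cells were among the samples. The labels do not say whether replicates came from separate animals or cultures, nor the age of the mice, so the tests measure only the spread between these samples.

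Cells that copy their DNA meet stalled forks and breaks. Stretches of single-stranded DNA at a fork, once coated with the protein RPA, recruit the kinase ATR, which acts through the kinase CHK1 to slow replication. Broken ends recruit the kinase ATM through the MRN complex. BRCA2 acts in homologous recombination at resected ends, the Fanconi proteins act at crosslinked DNA, and the mismatch repair proteins remove copying errors. Many of these genes are transcribed mainly in late G1 and S phase under control of E2F factors. Hepatocytes of the adult liver are mostly quiescent, while isolated hepatocytes in culture can partly enter the cell cycle.

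Aloxe3 itself checked the labels. It stood at 2.04, 2.06 and 1.74 RPKM (reads per kilobase of gene per 1000000 reads) in the β-gal libraries and at 42.3, 45.8 and 56.3 RPKM in the Aloxe3 libraries, which is 4.05 higher on the log2 scale (SE 0.10, limma adjusted p = 4.74e-06). Library sizes derived from the RPKM values were 29575553 to 32431318 reads with β-gal and 25521908 to 30399198 reads with Aloxe3, so that 1 read per kb equalled 0.0308 to 0.0392 RPKM. The hepatocyte marker Alb had a mean of 4484 RPKM, and Hnf4a, a hepatocyte transcription factor, of 27.2 RPKM, whereas the urea cycle gene Cps1 stood at only 1.24 RPKM and Tat, a tyrosine-degrading enzyme, at 0.428 RPKM. The summed level of 8 hepatocyte markers was 5080 to 5114 RPKM with β-gal and 4908 to 5071 RPKM with Aloxe3, and most of it was Alb, whose groups overlapped. The markers did not share a direction. Of the 7 that were tested, 4 had a positive log2 fold change, and Cps1 (0.985 ± 0.069 against 1.5 ± 0.18 RPKM) and Tat (0.278 ± 0.078 against 0.578 ± 0.12 RPKM, below the filter) had means that were higher with Aloxe3, with groups that did not overlap (SD, n = 3 each). Apoa1 and Serpina1a, which encode secreted plasma proteins, were lower in every Aloxe3 library than in any β-gal library. The summed level of 7 Kupffer cell markers, mostly Cd68, was also lower with Aloxe3 (133 to 146 against 150 to 153 RPKM). For every Kupffer marker other than Cd68 the groups overlapped. Of those, Csf1r, Clec4f and Timd4 had higher means with Aloxe3, and Adgre1, Marco and Vsig4 had lower means. In the summed levels of the endothelial, stellate, cholangiocyte and lymphocyte lists the groups overlapped. Of these markers Lrat, Ms4a1 and Nkg7 were listed at 0 in every library. The part of these shifts in the results below was not tested, and in bulk RNA fewer cells that express a gene and less RNA per cell cannot be told apart.

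Aloxe3 replicate 9 stood apart from the other Aloxe3 libraries. The chi-square of reads over its degrees of freedom was 8.93 and 9.85 against replicates 7 and 8, but 3.46 between those, and 3.69 to 5.50 among the β-gal libraries. Replicate 9 had the lowest Aloxe3 value in 46.8% of all tested genes. Values were compared as log2(RPKM + 1) with limma over the 12693 genes whose mean reached 0.5 RPKM, with p-values adjusted over all of them (Benjamini-Hochberg). Fold changes on this scale understate those of genes near 1 RPKM. The ratio of mean RPKM, Aloxe3 over β-gal, ran from 0.943 to 1.66 over the 32 genes above 0, and is given for the genes with the smallest p. Of the 33 genes, 30 were tested. Rad51c and Fanci lay below the filter, at 0.415 and 0.421 RPKM, and Rad9a was listed at 0 in every library. That value does not show that Rad9a RNA was absent. Its partners Rad1 and Hus1 were at 1.63 and 2.24 RPKM, only unambiguous reads were counted, and 7.41% of the 50-base windows of its transcript also occur in Ppp1ca, but the cause of the 0 was not tested.

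The promoters of the 4 tested genes with the smallest p are shown because a shared E2F site is the sequence feature known for this class of genes. Each is the strand of the gene from 250 bases before to 50 bases after the RefSeq start site (GRCm38.p6), 5′ to 3′. Capitals mark an E2F site searched as TTTCCCGC, TTTCGCGC, TTTGCCGC or TTTGGCGC on either strand, or the letters GGCGGGAA, another form of the E2F site, which was added after the Chek1 window had been seen and overlaps the first of these by all but its end letters. The windows were Brca2 at chr5:150522371-150522670 on the forward strand, Clspn at chr4:126556730-126557029 on the forward strand, Chek1 at chr9:36726609-36726908 on the reverse strand and Topbp1 at chr9:103305077-103305376 on the forward strand.
Brca2: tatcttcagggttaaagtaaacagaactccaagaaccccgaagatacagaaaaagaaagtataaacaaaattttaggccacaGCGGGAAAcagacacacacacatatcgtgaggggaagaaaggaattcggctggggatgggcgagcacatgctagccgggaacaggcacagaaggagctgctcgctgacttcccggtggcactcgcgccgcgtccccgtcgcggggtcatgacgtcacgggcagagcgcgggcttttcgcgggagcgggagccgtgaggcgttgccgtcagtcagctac
Clspn: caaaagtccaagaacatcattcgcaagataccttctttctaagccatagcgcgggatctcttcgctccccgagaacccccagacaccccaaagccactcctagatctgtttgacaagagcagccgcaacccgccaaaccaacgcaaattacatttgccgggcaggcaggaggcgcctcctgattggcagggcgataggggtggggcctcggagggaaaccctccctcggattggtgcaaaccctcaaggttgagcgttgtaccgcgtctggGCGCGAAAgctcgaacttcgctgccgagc
Chek1: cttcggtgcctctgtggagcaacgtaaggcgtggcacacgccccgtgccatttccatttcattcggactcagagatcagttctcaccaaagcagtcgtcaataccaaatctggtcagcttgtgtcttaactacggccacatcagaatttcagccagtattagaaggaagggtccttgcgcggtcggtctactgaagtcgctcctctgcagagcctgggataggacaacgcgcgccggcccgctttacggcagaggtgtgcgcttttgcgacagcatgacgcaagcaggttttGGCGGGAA
Topbp1: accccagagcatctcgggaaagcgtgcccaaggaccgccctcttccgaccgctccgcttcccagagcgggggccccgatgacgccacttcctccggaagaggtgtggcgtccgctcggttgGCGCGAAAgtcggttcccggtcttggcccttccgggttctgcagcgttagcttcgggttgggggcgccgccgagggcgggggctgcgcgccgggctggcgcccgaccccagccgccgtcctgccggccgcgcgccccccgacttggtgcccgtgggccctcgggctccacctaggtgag

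The match began 168 bases before the start site in Brca2 and 129 bases before it in Topbp1, 21 bases after it in Clspn, and 42 bases after it, at the very end of the window, in Chek1. RefSeq windows were at hand for 26 of the 33 genes. Of these 26, 8 genes (30.8%) held at least 1 of the 4 planned E2F sequences, against 2.60% of the 27025 genes in the table. They were Bard1, Brca2, Chek2, Clspn, Fancg, Msh6, Rad51c and Topbp1. GGCGGGAA was in 15.4% of the 26 genes and in 2.52% of all genes. The CCAAT box was in 53.8% against 41.1%, and TTTGAA, the letters of the CHR element of late cell cycle genes, in 7.69% against 20.2%. Among tested genes with a window, the 7 with a planned E2F match had a median log2 fold change of 0.17, with 4 at an unadjusted p under 0.05. The 17 without one had a median of 0.02, with 3 at such a p. Of all tested genes 12.7% had such a p in either direction and 7.31% were higher at it. A match is a string of letters in a fixed window and not a bound site, and this split was not tested.

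All 32 genes above 0 were expressed at low to moderate levels, between 0.415 and 13.3 RPKM with a median of 1.91 RPKM, against a median of 6.85 RPKM for all tested genes. As the plot of levels shows, 17 of the 32 stood below 2 RPKM, 7 between 2 and 5 RPKM and 8 above. The highest deposited values were those of Tipin (mean 13.3 RPKM), Msh6 (11.4 RPKM) and Rad50 (11.3 RPKM), whose ranges over the 6 libraries overlapped, and then of Topbp1 (8.29 RPKM) and Rad17 (7.77 RPKM), also with overlapping ranges. Subunits of the MRN complex did not have equal RNA levels per length. Rad50 was at 11.3 RPKM, Nbn at 5.82 RPKM and Mre11a at 4.96 RPKM. Brca1 and Bard1 were at 1.46 and 1.87 RPKM. These levels depend on the gene length used. The values of Atr gave whole reads with a length of 23492 bases and those of Topbp1 with 11122 bases, whereas their longest GENCODE M21 transcripts have 8102 and 5224 bases, and for Tipin the length was 1211 bases against 1841. Atr and its partner Atrip, at 1.29 and 3.00 RPKM, can therefore not be ranked by these values, nor can Tipin and Topbp1 be ranked against each other or against Msh6 and Rad50.

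**Figure D1:**
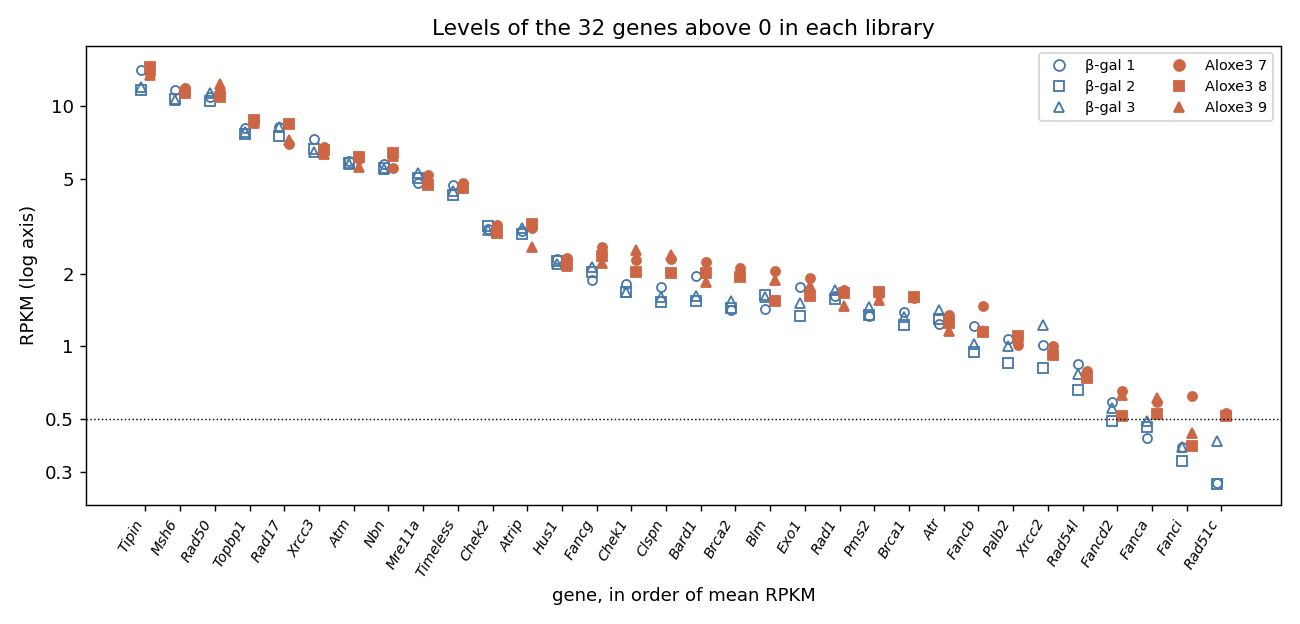
RPKM (log axis) of the 32 genes above 0, in order of mean RPKM, with open points for the 3 β-gal libraries and filled points for the 3 Aloxe3 libraries. The dotted line is the filter at 0.5 RPKM. Levels run from 13.3 RPKM for Tipin to 0.415 RPKM for Rad51c, and the distance between groups is small beside the distance between genes.

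With Aloxe3, 0 of the 30 tested genes passed an adjusted p of 0.05 in limma, where 0.394% of all tested genes did. At an unadjusted p under 0.05 there were 7, all of them higher with Aloxe3, that is 23.3% of the 30 against 7.31% of all tested genes in that direction. None was lower at such a p, against 5.42% of all tested genes and 3.19% of the 8409 tested genes whose level lay between the lowest and highest of the 30. Those 7 were Brca2, Clspn, Chek1, Topbp1, Brca1, Fancg and Pms2. Of the 30, 21 had a positive log2 fold change (70.0%, against 52.4% of all tested genes), and the median was 0.07, from -0.07 (Rad17) to 0.31 (Brca2). The median over all tested genes was 0.0049. Of those 8409 genes, 58.5% were positive, with a median of 0.02, and 8.65% were higher at an unadjusted p under 0.05. The Aloxe3 libraries all lay above the β-gal libraries for 8 of the 30, the 7 genes above and Fanca, against 11.2% of all tested genes and 13.3% of those in the same range of levels. For 0 of the 30 they all lay below, against 8.71%. An exact permutation test of 3 against 3 libraries cannot give a two-sided p below 0.1, which each of these 8 reached. The 7 genes became 3 of 30 without β-gal replicate 2, where 8.15% of all tested genes had such a p in either direction, and 4 with quantile normalization, where 11.7% had. Without Aloxe3 replicate 9 there were 8, against 12.2%, and 24 of the 30 were positive.

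The call for 2 genes depended on the test. When reads were derived from the RPKM values and tested with voom in limma, Brca2 and Clspn passed an adjusted p of 0.05, with 1.22% of all tested genes past it. The adjusted p was 0.0019 for Brca2 and 0.023 for Clspn, and the log2 fold changes on the read scale were 0.48 (SE 0.068) and 0.45 (SE 0.089). With each library left out in turn, 0 of the 30 passed in limma on RPKM, where 0.0473% to 0.15% of all tested genes did. Voom was not repeated with a library left out, so these fits do not bear on its calls.

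**Figure D2:**
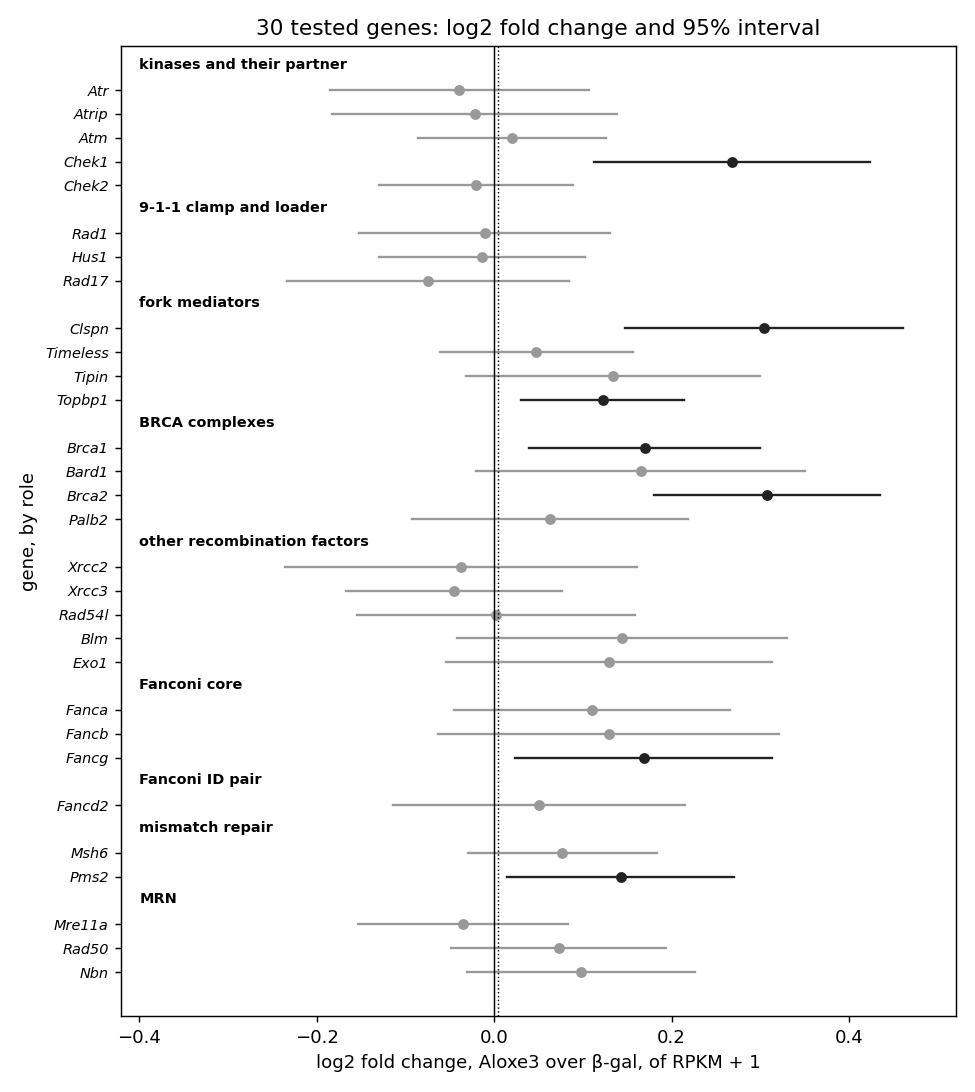
Log2 fold change (Aloxe3 over β-gal, of RPKM + 1) with its 95% interval from limma for the 30 tested genes, by role. Black marks an unadjusted p under 0.05, the solid line is 0 and the dotted line the median of all tested genes. Intervals of Brca2, Clspn and Chek1 lie farthest above 0, and those of the clamp genes and of Atr, Atrip, Atm and Chek2 span it.

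Among the kinases and their partner, Chek1 had the smallest p. It encodes the effector kinase that ATR phosphorylates. Chek1 (chromosome 9, 36708482 to 36727065, GRCm38, as all gene coordinates here) stood at 1.82, 1.68 and 1.68 RPKM in the β-gal libraries and at 2.29, 2.04 and 2.52 RPKM in the Aloxe3 libraries. All Aloxe3 libraries were above all β-gal libraries, replicate 9 most. The ratio of means was 1.33 and the log2 fold change 0.27 (SE 0.067, limma adjusted p = 0.216). The log2 fold changes of the other 4 genes of this role lay between -0.04 and 0.02, with overlapping groups. Atr, the apical kinase of the replication checkpoint, had a β-gal mean of 1.32 ± 0.087 RPKM and an Aloxe3 mean of 1.26 ± 0.097 RPKM (SD, n = 3 each, and in this order for the pairs of means below), and the 95% interval of its log2 fold change ran from -0.19 to 0.11. Atm, the apical kinase at broken ends, was at 5.84 ± 0.091 and 5.94 ± 0.29 RPKM, with an interval from -0.09 to 0.13. Chek2, the effector kinase downstream of ATM, was at 3.10 ± 0.069 and 3.05 ± 0.12 RPKM, with an interval from -0.13 to 0.09. Atrip had the widest spread with Aloxe3, at 3.10, 3.23 and 2.59 RPKM. Since 23.9% of the 50-base windows of the Atrip transcript also occur in Trex1, whose gene overlaps it, reads there could not be assigned to either.

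The tested clamp genes, Rad1 and Hus1, and their loader Rad17 had log2 fold changes just below 0. RAD9A, RAD1 and HUS1 form the ring that RAD17 loads next to a stalled fork. Rad17 (chromosome 13, 100617164 to 100651051) stood at 8.19, 7.54 and 8.23 RPKM with β-gal and at 6.98, 8.41 and 7.26 RPKM with Aloxe3. The groups overlapped, with Aloxe3 replicate 8 the highest of the 6 libraries and the other 2 Aloxe3 libraries the lowest. Its log2 fold change was -0.07 (SE 0.068, limma adjusted p = 0.685). Rad1 (-0.01) and Hus1 (-0.01) were closer still to 0, with 95% intervals from -0.15 to 0.13 and from -0.13 to 0.10.

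The fork mediators all had positive log2 fold changes, with a median of 0.13. Clspn encodes claspin, the adaptor that brings CHK1 to ATR. Clspn (chromosome 4, 126556935 to 126593903) stood at 1.77, 1.52 and 1.60 RPKM with β-gal and at 2.31, 2.02 and 2.41 RPKM with Aloxe3. The lowest Aloxe3 library, replicate 8, was above the highest β-gal library, replicate 1. From 340 to 410 reads per β-gal library and 424 to 458 per Aloxe3 library, the ratio of means was 1.38 and the log2 fold change 0.30 (SE 0.067, limma adjusted p = 0.161). Topbp1 encodes the activator of ATR at the loaded clamp. Topbp1 (chromosome 9, 103305215 to 103350428) stood at 8.15, 7.69 and 7.84 RPKM with β-gal and at 8.79, 8.77 and 8.49 RPKM with Aloxe3. The groups did not overlap, although the ratio of means was only 1.10 and the log2 fold change 0.12 (SE 0.039, limma adjusted p = 0.291). By the derived reads it had 2495 to 2964 per library, the most of the 33 genes. TIMELESS and TIPIN form the fork protection complex. Tipin (chromosome 9, 64281581 to 64305424) stood at 14.2, 11.7 and 12.0 RPKM with β-gal and at 13.7, 14.6 and 13.6 RPKM with Aloxe3. β-gal replicate 1 was above 2 of the Aloxe3 libraries, and the log2 fold change was 0.13 (SE 0.071, limma adjusted p = 0.483). Timeless was at 4.48 ± 0.21 and 4.66 ± 0.13 RPKM (SD, n = 3 each), and its log2 fold change was 0.05.

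**Figure D3:**
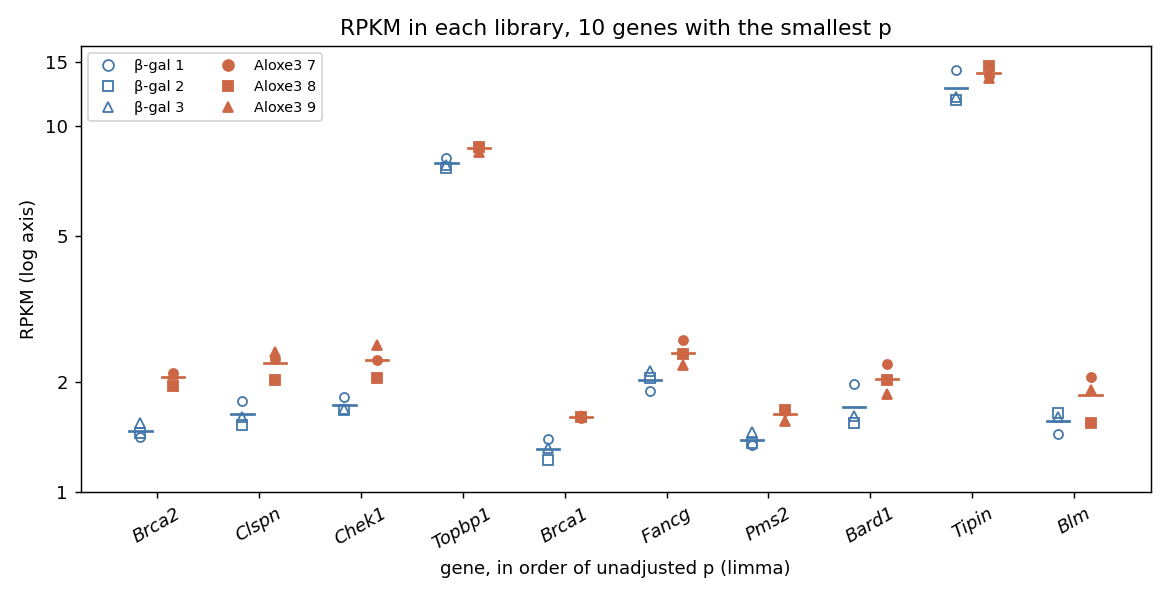
RPKM (log axis) in each library of the 10 tested genes with the smallest unadjusted p in limma, with open points for β-gal, filled points for Aloxe3 and bars for the group means. The groups do not overlap for the first 7 genes, Brca2 to Pms2, and overlap for Bard1, Tipin and Blm.

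The genes of the BRCA complexes held the gene with the smallest p. BRCA2 is a mediator of strand exchange in homologous recombination. Brca2 (chromosome 5, 150522630 to 150570329) stood at 1.41, 1.45 and 1.54 RPKM with β-gal and at 2.11, 1.95 and 2.10 RPKM with Aloxe3. The gap between the groups was wider than the range within either. In reads these were 488 to 503 per β-gal library and 578 to 635 per Aloxe3 library, although the Aloxe3 libraries were the shallower on the whole. The ratio of means was 1.4 and the log2 fold change 0.31 (SE 0.055, 95% interval 0.18 to 0.44, limma adjusted p = 0.0869). BRCA1 and BARD1 form a ubiquitin ligase that promotes resection and recombination. Brca1 (chromosome 11, 101488764 to 101551955) stood at 1.39, 1.22 and 1.32 RPKM with β-gal and at 1.59, 1.60 and 1.61 RPKM with Aloxe3, a ratio of means of 1.22. The Aloxe3 libraries were almost equal and all above β-gal, with a log2 fold change of 0.17 (SE 0.056, limma adjusted p = 0.296). Bard1 (chromosome 1, 71027498 to 71103146) stood at 1.97, 1.54 and 1.61 RPKM with β-gal and at 2.24, 2.02 and 1.85 RPKM with Aloxe3. Its mean was higher by a ratio of 1.19, but β-gal replicate 1 was above Aloxe3 replicate 9, and the log2 fold change was 0.17 (SE 0.080, limma adjusted p = 0.435). Palb2, which bridges BRCA1 and BRCA2, was at 0.977 ± 0.11 and 1.06 ± 0.047 RPKM (SD, n = 3 each), with overlapping groups.

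Of the other recombination factors among the 33 genes, which include a helicase and a nuclease, 5 were tested, and their median log2 fold change was 0.0022. RAD51C, XRCC2 and XRCC3 are related proteins that act in strand exchange. Rad51c (chromosome 11, 87376645 to 87404954) was below the filter, with 0.269, 0.267 and 0.401 RPKM with β-gal and 0.527, 0.510 and 0.518 RPKM with Aloxe3. These came from 38, 38 and 52 reads against 59, 68 and 60 reads, and the groups did not overlap. The ratio of means, 1.66, was the largest of the 32 genes, at a counting error of 13.8% per library. With no filter on low values its log2 fold change was 0.21 (SE 0.051, limma adjusted p = 0.371). In voom over genes with at least 10 reads on average, chosen after seeing the data, it was 0.75 (SE 0.19, limma adjusted p = 0.0661), where 1.19% of genes were called. Xrcc2 and Xrcc3 had means that were lower with Aloxe3, by ratios of 0.943 and 0.964, with overlapping groups. Rad54l, a motor protein of strand exchange, was at 0.755 ± 0.090 and 0.756 ± 0.028 RPKM (SD, n = 3 each), with a 95% interval of the log2 fold change from -0.15 to 0.16. For this gene 21% of 50-base windows also occur in the overlapping gene Lrrc41. Blm, the helicase that dissolves crossed strands, stood at 1.43, 1.64 and 1.60 RPKM with β-gal and at 2.06, 1.54 and 1.90 RPKM with Aloxe3. Aloxe3 replicate 8 was within the β-gal range, and the log2 fold change was 0.14 (SE 0.080, limma adjusted p = 0.501). Exo1, the nuclease that extends resection, was at 1.54 ± 0.22 and 1.78 ± 0.16 RPKM (SD, n = 3 each), also with overlapping groups.

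In the Fanconi pathway the core genes had log2 fold changes from 0.11 to 0.17. FANCA, FANCB and FANCG belong to the core complex that ubiquitinates the FANCD2 and FANCI pair. Fancg (chromosome 4, 43002343 to 43010506) stood at 1.89, 2.05 and 2.14 RPKM with β-gal and at 2.60, 2.38 and 2.22 RPKM with Aloxe3. The groups did not overlap, but Aloxe3 replicate 9 was close to β-gal replicate 3, the ratio of means was 1.19, and the log2 fold change was 0.17 (SE 0.062, limma adjusted p = 0.334). Fanca had 0.456 ± 0.037 and 0.572 ± 0.043 RPKM (SD, n = 3 each), from 114 to 136 reads per library, with groups that did not overlap and a ratio of means of 1.25. Fancb had 1.06 ± 0.14 and 1.26 ± 0.19 RPKM (SD, n = 3 each), with overlapping groups. Fancd2 stood at 0.543 ± 0.049 and 0.598 ± 0.074 RPKM (SD, n = 3 each), and its groups overlapped too. Fanci, below the filter, had 0.382, 0.332 and 0.381 RPKM with β-gal and 0.618, 0.382 and 0.433 RPKM with Aloxe3. Its ratio of means of 1.31 came mostly from Aloxe3 replicate 7, and 11.6% of its 50-base windows also occur in the neighboring Polg.

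The mismatch repair genes were both higher in mean. PMS2 is an endonuclease subunit that acts after a mismatch is found, and MSH6 recognizes mispaired bases. Pms2 (chromosome 5, 143909964 to 143933968) stood at 1.34, 1.36 and 1.46 RPKM with β-gal and at 1.66, 1.68 and 1.56 RPKM with Aloxe3. The groups did not overlap, the ratio of means was 1.18, and the log2 fold change was 0.14 (SE 0.055, limma adjusted p = 0.348). Msh6 (chromosome 17, 87975062 to 87990892) stood at 11.7, 10.7 and 10.7 RPKM with β-gal and at 11.9, 11.4 and 11.8 RPKM with Aloxe3. β-gal replicate 1 lay within the Aloxe3 range, and the log2 fold change was 0.08 (SE 0.046, limma adjusted p = 0.529).

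The MRN genes, whose products hold broken ends together and activate ATM, did not separate the groups. Rad50 (chromosome 11, 53649519 to 53707319) stood at 10.97, 10.55 and 11.42 RPKM with β-gal and at 11.46, 10.99 and 12.38 RPKM with Aloxe3. The ranges overlapped, and the log2 fold change was 0.07 (SE 0.052, limma adjusted p = 0.589). Nbn was at 5.58 ± 0.13 and 6.05 ± 0.46 RPKM and Mre11a at 5.03 ± 0.23 and 4.89 ± 0.24 RPKM (SD, n = 3 each).

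Other genes of the same pathways were examined as lists. Of 23 other recombination genes 22 were tested, 16 with a positive log2 fold change and a median of 0.08. In limma 0 passed the adjusted threshold, and 6 were higher and 0 lower at an unadjusted p under 0.05. Over all tested genes 7.31% were higher and 5.42% lower at such a p, and 0.394% passed the adjusted threshold, which is the background for each list here. Dna2, a nuclease and helicase of resection, stood at 2.70, 2.44 and 2.37 RPKM with β-gal and at 3.33, 3.59 and 3.57 RPKM with Aloxe3, and its log2 fold change was 0.36 (SE 0.056, limma adjusted p = 0.0544). Rpa1, the large subunit of the protein that coats single-stranded DNA, was at 0.18 on the same scale (SE 0.042, limma adjusted p = 0.189). Of 12 tested checkpoint genes outside the 33, 10 were positive, with a median of 0.10 and 5 at an unadjusted p under 0.05. Rif1, which protects broken ends and controls origin timing, was at 4.41 ± 0.13 and 5.32 ± 0.045 RPKM, and Wee1, the kinase that restrains CDK1, at 5.33 ± 0.36 and 7.07 ± 0.86 RPKM (SD, n = 3 each). Neither passed the adjusted threshold. Among 10 other Fanconi genes the median was 0.05 with 3 at such a p, among them Usp1 (0.15), the enzyme that removes ubiquitin from FANCD2, and Slx4 (0.11), a scaffold of nucleases.

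Repair pathways less tied to replication, and lists around them, were read the same way. End joining, with 9 tested genes, had a median log2 fold change of 0.07 and 0 genes at an unadjusted p under 0.05, with Polm at 0.11 and Xrcc6 at 0.11. Base and nucleotide excision repair, with 16 tested genes, had a median of 0.02, with 2 genes higher and 1 lower at such a p. Ung, which removes uracil from DNA, was at 0.31 (SE 0.060, limma adjusted p = 0.103) on this scale and Ercc3, a helicase subunit of TFIIH, at -0.14 (SE 0.034, limma adjusted p = 0.183). The 10 p53 targets had a median of 0.04, with 2 genes at such a p, Cdkn1a (0.20) and Mdm2 (0.14). The S phase and division genes taken for comparison had the largest values of these lists. Of their 15 tested genes all were positive, with a median of 0.27. At an unadjusted p under 0.05 there were 12, and 3 passed the adjusted threshold in limma. Ccne2 rose from 1.97 ± 0.18 to 4.05 ± 0.61 RPKM and Ccne1 from 12.4 ± 1.3 to 19.2 ± 1.3 RPKM (SD, n = 3 each), with log2 fold changes of 0.76 and 0.60 (adjusted p = 0.025 and 0.027 from limma), and these cyclins drive entry into S phase. The third was Mcm6 (0.32, limma adjusted p = 0.0498), a subunit of the replicative helicase. The difference between this list and the checkpoint and repair genes was not tested, and the lists share the same 6 libraries. Their levels differed too, with a median of 15.8 RPKM for this list and 1.97 RPKM for the 30 genes. Since the scale understates fold changes near 1 RPKM, the medians of the 2 lists are not on an equal footing.

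**Figure D4:**
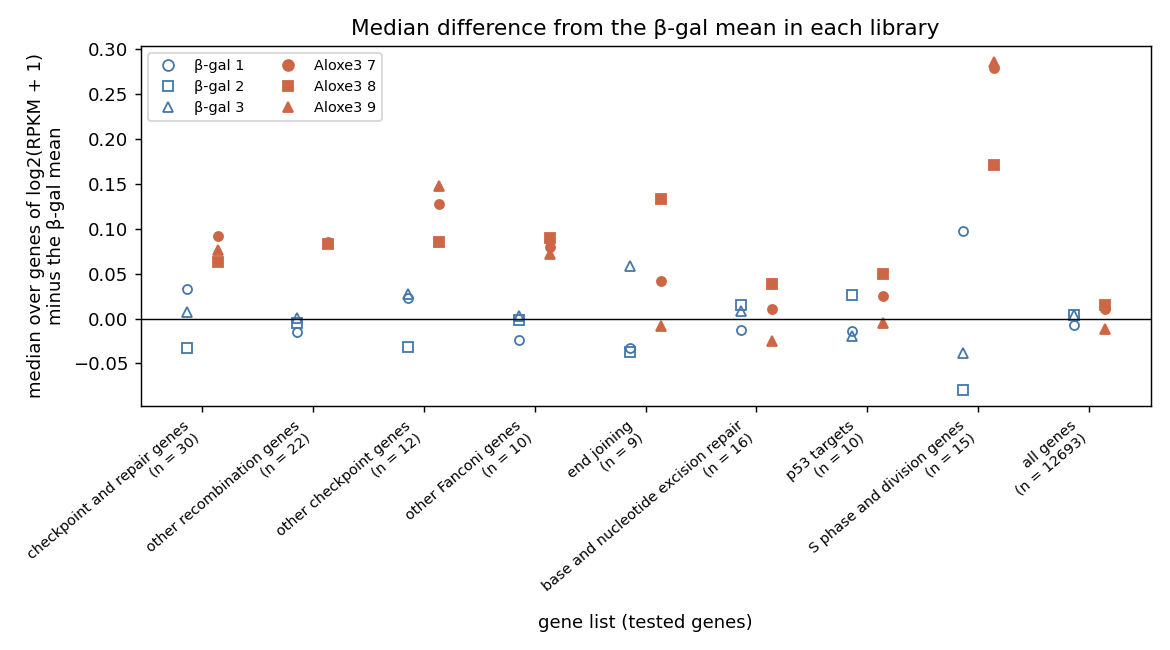
Median over the tested genes of each list of log2(RPKM + 1) minus the β-gal mean of the gene, in each library, with open points for β-gal and filled points for Aloxe3. For the checkpoint and repair genes the Aloxe3 libraries lie at 0.063 to 0.092 and the β-gal libraries at -0.032 to 0.032, and for the S phase and division genes at 0.17 to 0.29 and -0.079 to 0.097. The scale understates differences of genes with low RPKM.

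By library, the median of the 30 genes relative to β-gal was 0.092, 0.063 and 0.077 in Aloxe3 replicates 7, 8 and 9, and 0.032, -0.032 and 0.0069 in β-gal replicates 1, 2 and 3. The groups did not overlap in this median. The same median over all tested genes stayed between -0.012 and 0.015 in the 6 libraries.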

How the data were processed

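RNA of 6 libraries was sequenced with single reads of 50 bases after poly-A selection. Strand marking is not described. The authors aligned the reads with STAR 2.0.4b to the Ensembl assembly GRCm38.p2, per the labels, took read numbers of genes from featureCounts 1.4.5 (unique and unambiguous alignments), and deposited RPKM values for 41388 genes. How RPKM were computed from counts is not given in the sources used here. The deposited RPKM were used as they are. Symbols and coordinates come from GENCODE M21 (GRCm38), which matched 40340 identifiers.

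Library sizes were derived as the number of reads for which RPKM times exon length gives whole reads. Reads were whole within 0.02 with the M21 exon length for 16548 genes, and for 8440 only at another length, the shortest possible being taken. For those, reads may be off by a factor shared by all libraries. Counting errors cover sampling of reads only. Replicate pairs differed by more than sampling noise (chi-square over its degrees of freedom 3.46 to 9.85). All 6 libraries were kept in the main fit.

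Under R 4.3.3, log2(RPKM + 1) of genes whose mean reached 0.5 RPKM was fitted in limma 3.58.1 by lmFit and a trended eBayes (Benjamini-Hochberg at 0.05), 3 Aloxe3 against 3 β-gal libraries, without batch. The scripts were tested on simulated data. Figures were drawn with matplotlib 3.10.9. Alternatives were a pseudocount of 0.1, no filter, a filter at 1 RPKM, median and quantile scaling, eBayes without trend, voom with TMM factors on derived reads, and leaving out each library. Voom over genes with a mean of at least 10 reads was added after seeing the data.

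The 33 genes and all lists were chosen with earlier results of these data known. Every gene of the 33 is given by role, with values in each library for the 10 with the smallest p and the 5 with the highest mean, and for each further list the 2 genes with the smallest p are named. A further list of mismatch repair genes is not reported here. Rad51c, Fanci and Mcm6, and the library values of Atrip, were named outside this rule after their values were seen.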

Additional observations from a re-analysis of the deposited data

How the results depend on the processing

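Over 14 alternatives, the log2 fold changes of 32 genes gave 418 values, of which 404 kept their direction and their side of the adjusted threshold, 4 passed it and 10, in 6 genes near 0, changed sign. The 4 were Brca2 and Clspn in both voom fits on derived reads, so that 2 genes passed in each of them. The median of the 30 genes was 0.07 and became 0.11 with a pseudocount of 0.1 and 0.12 with voom. Voom over genes with at least 10 reads, where Rad51c and Fanci enter, gave 0.12 over 32 genes, and leaving out 1 library 0.053 to 0.095 over the 30. Rad54l was at -0.0041 with median scaling and at -0.033 with quantile normalization. With 1 library left out, log2 fold changes ran from -0.0031 to 0.055 for Atm, -0.068 to 0.050 for Atrip, -0.037 to 0.0025 for Hus1, -0.039 to 0.032 for Rad1, -0.037 to 0.037 for Rad54l and -0.11 to 0.038 for Xrcc2. Among genes that kept their sign they ran from -0.15 to -0.027 for Rad17, 0.022 to 0.076 for Timeless, 0.017 to 0.098 for Palb2, 0.025 to 0.089 for Fancd2, 0.061 to 0.15 for Nbn, 0.055 to 0.12 for Msh6, -0.071 to -0.0089 for Atr, -0.046 to -0.0066 for Chek2, -0.068 to -0.0067 for Mre11a, -0.077 to -0.00083 for Xrcc3, 0.029 to 0.11 for Rad50, 0.063 to 0.18 for Fancb, 0.071 to 0.19 for Exo1, 0.086 to 0.22 for Blm, 0.086 to 0.21 for Tipin, and 0.29 to 0.33 for Brca2. The number of genes past the threshold over the whole table was 50, and 7 without a filter on low values, 155 with voom and 171 with voom over genes with at least 10 reads. It was 6 to 19 with 1 library left out. Of the checkpoint and repair genes 0 passed in any fit with a library left out, and 3 to 9 of 30 had an unadjusted p under 0.05 in limma, where 8.15% to 14.4% of all tested genes had one. No paired analysis was possible because the replicate numbers of the groups (1, 2 and 3 against 7, 8 and 9) are not shared. With 38 to 68 reads, Rad51c has a counting error of 13.8% per library, against 1.92% for Topbp1.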

Other observations

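The β-gal libraries were not alike for these genes. β-gal replicate 1 had the highest β-gal value in 17 of the 30 tested genes, against 32.2% of all tested genes, and β-gal replicate 2 the lowest in 17, against 28.2%. Of the Aloxe3 libraries, replicate 7 had the highest value in 18 of the 30 genes, against 35.6% of all tested genes. The S phase and division genes had the same highest and lowest β-gal library, with medians relative to the β-gal mean of 0.097 in replicate 1 and -0.079 in replicate 2. So had the tested markers of endothelial cells (0.099 and -0.075), Kupffer cells (0.13 and -0.060) and cholangiocytes (0.013 and -0.031). For hepatocyte markers replicate 3 was the highest, and for stellate markers replicate 3 was the lowest. The source of these differences was not tested.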
